A study of Gallus gallus with 6 samples.

Results

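The 8 genes MYB, MYC, RUNX1, GATA2, IKZF1, ETS1, GATA3 and LEF1 encode transcription factors of blood cell lineages. They were chosen by name, and their probes were found by matching the accession on each probe to a chicken RefSeq gene. The array held 14 probes for them, out of 43603 probes in all and 5382 genes that could be named. Leukocytes were taken by Ficoll density gradient from wing vein blood of chickens 1 to 2 months old, and the Cy3-labelled product of each sample's total RNA was read on its own 1-colour Agilent array. The study compared 3 libraries labelled female with 3 labelled male. The labels give no genotype or treatment for either group, although the series belongs to a project on transgenic and non-transgenic chickens. They also do not say whether each library came from a separate bird, so p-values measure the spread between these libraries only.

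Blood lineages are set by transcription factors that act in combinations and often oppose each other. MYB and MYC keep progenitors growing, and both were first found as cellular counterparts of oncogenes carried by chicken leukemia viruses. RUNX1 and GATA2 act in stem and early progenitor cells, and both are kept on in some mature cell types. IKZF1 (Ikaros), ETS1, GATA3 and LEF1 act in the lymphocyte lineages, the last 2 mainly in T cells. In birds the same gradient layer also holds thrombocytes, which carry a nucleus and their own mRNA.

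Between 79.0 and 83.1% of the 43803 non-control spots on an array were well above background, and no spot was saturated. All 14 probes of the 8 factors were well above background on all 6 arrays, as were 75.2% of all probes. Levels are given as log2 of the processed signal relative to the array's own 75th percentile, so that 0 is the brightness of that percentile. Probes differ in how brightly they bind, so levels are compared between libraries and never between probes. The female-specific W-chromosome gene HINTW, which checks the labels, read 6.61 and 6.54 for the labels female 1 and female 2 and 7.01 for male 3 on probe A_87_P060451. It read -4.31 for the label female 3 and -4.30 and -4.32 for male 1 and male 2. This probe was flagged well above background on all 6 arrays, also where it read low. The 4 MYB probes read from -3.94 to -6.63, near or below the low readings of this 1 probe. Other HINTW probes read from -8.95 (A_87_P060441, male 2) to 4.65 (A_87_P060491, female 3) in the libraries low in HINTW. The low reading of 1 probe thus sets no floor for another. For MYB the flag alone therefore does not settle how much of the signal came from its mRNA. The libraries labelled female 3 and male 3 thus go against their labels, and each factor's comparison is given both with them and without. All female-labelled libraries lay on 1 slide and all male-labelled libraries on another, scanned on the same day, so a slide effect and the label cannot be told apart.

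Leukocyte markers were present. Among T cell markers CD3D ranged from 7.53 to 8.11, and among B cell markers CD79B ranged from 5.39 to 6.24. The thrombocyte integrin ITGB3 ranged from 6.77 to 7.33. Among erythroid markers the globin gene HBBA ranged from 8.06 to 8.74. Marker levels of other cells differed between libraries, most of all for heterophil granule genes. Averaged over 10 heterophil markers, female 3 and male 3 deviated by 2.04 and 1.54 (log2) from the mean of all libraries. Female 2 and male 2 deviated by -1.30 and -2.13. The receptor gene CSF3R and CATHB1, also on this list, were not low in male 2. They read 1.49 and -4.47 there, against 0.45 and -5.04 in female 2. Cytotoxic cell genes (4 measured) were highest in the library labelled male 2, at a mean deviation of 2.02, and lowest in that labelled female 1, at -1.44. In RNA from mixed cells, fewer cells of a type and less of an mRNA per cell cannot be told apart.

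No factor differed between the labelled sexes past the adjusted threshold of 0.05 (limma over 29508 features, Benjamini-Hochberg). The same test called 0% of all features after adjustment and 3.81% at an unadjusted p under 0.05, and 0 of the 8 factors passed either. An exact permutation of 3 libraries against 3 cannot go below p = 0.1, so unadjusted p-values rest on the spread that limma shares between features. The male-labelled mean was lower for 6 of the 8 factors, against 52.6% of all features. The median difference over the 8, male-labelled minus female-labelled, was -0.21 on the log2 scale, against -0.01 over all features. Groups did not overlap for MYB and RUNX1, both lower in the male-labelled libraries, where 4.16% of all features had that pattern.

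MYB, which sustains immature progenitors, had 4 probes, all at a low signal. They lay near or below the low readings of HINTW probe A_87_P060451, which set no floor for other probes. On its brightest probe, A_87_P283743, the level was -3.94, -4.07 and -4.04 in female-labelled libraries 1, 2 and 3, and -4.17, -4.88 and -4.10 in male-labelled libraries 1, 2 and 3. The library labelled male 2 stood far below the other 5, which lay close together. The groups did not overlap, by the narrow gap between female 2 and male 3. The means were -4.02 ± 0.07 and -4.38 ± 0.43 (SD, n = 3 each), a difference of -0.37 (SE 0.23, 95% interval -0.92 to 0.19, limma adjusted p = 0.948). It was -0.52 with female 3 and male 3 left out (limma adjusted p = 0.345), -0.12 without the library labelled male 2, -0.13 under normexp background correction and -0.15 with the mean of all 4 probes.

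The 3 dimmer MYB probes gave another order of libraries. Probe A_87_P055876 read -5.06, -5.85 and -6.39 in female-labelled libraries 1, 2 and 3 and -5.77, -6.63 and -5.05 in male-labelled libraries 1, 2 and 3. Probe A_87_P008979 read -5.46, -6.31 and -6.47 in the first group and -6.43, -6.60 and -5.52 in the second. Probe A_87_P099016 read -4.63, -4.99 and -5.24, then -4.96, -5.19 and -4.92. All 3 were highest in the library labelled female 1 or male 3, and low in those labelled female 3 and male 2. Their groups overlapped, with differences of -0.05, -0.10 and -0.07. These 3 correlated with each other over the 6 libraries at r between 0.82 and 0.93, and with the brightest probe at 0.52 to 0.66. The 4 probes match the same RefSeq transcript, and they did not agree on whether the library labelled female 3 was high or low.

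MYC, the growth regulator that pairs with MAX, had 1 probe. Its level was 2.03, 2.23 and 2.12 in female-labelled libraries 1, 2 and 3, and 2.04, 1.46 and 2.45 in male-labelled libraries 1, 2 and 3. The library labelled male 2 was the lowest and male 3 the highest, so the male-labelled group spanned the whole female-labelled one. The highest and lowest libraries differed 1.98-fold. The difference between the labelled sexes was -0.14 (SE 0.26, 95% interval -0.77 to 0.48, limma adjusted p = 0.951), and -0.38 without the pair of libraries that go against their labels (limma adjusted p = 0.416). Without the library labelled male 2 it turned to 0.12.

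RUNX1, which starts blood stem cell formation in the embryo and acts with its partner CBFB, had 2 probes. The brighter, A_87_P008696, read 0.54, 0.40 and 0.47 in female-labelled libraries 1, 2 and 3, and 0.13, 0.25 and 0.18 in male-labelled libraries 1, 2 and 3. Each female-labelled library was above each male-labelled one. The means were 0.47 ± 0.07 and 0.18 ± 0.06 (SD, n = 3 each), a 1.22-fold difference of -0.29 on the log2 scale (SE 0.12, 95% interval -0.58 to 0.00, limma unadjusted p of 0.0524 and adjusted p = 0.948). With female 3 and male 3 left out the difference was -0.28 (limma adjusted p = 0.308). The order followed the label and the slide, and not HINTW: the library labelled female 3, low in HINTW, had a RUNX1 level between those labelled female 1 and 2. Whether slide has a part in it cannot be told apart from the label.

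The second RUNX1 probe, A_87_P109503, read -2.38, -2.64 and -2.83 in female-labelled libraries 1, 2 and 3, and -2.88, -2.77 and -3.04 in male-labelled libraries 1, 2 and 3. It too was highest in female 1, but female 3 lay below male 2, so the groups overlapped. Its difference was -0.28 (SE 0.16, limma adjusted p = 0.942 over all probes), close in size to that of the brighter probe. The 2 probes correlated at r = 0.77 over the 6 libraries.

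GATA2, a factor of stem and progenitor cells and, in mammals, of megakaryocytes and mast cells, had 1 probe. Its level was 3.28, 3.29 and 2.69 in female-labelled libraries 1, 2 and 3, and 3.02, 2.41 and 2.85 in male-labelled libraries 1, 2 and 3. Female 1 and 2 were the highest, male 2 and female 3 the lowest, and the groups overlapped. The means were 3.09 ± 0.34 and 2.76 ± 0.32 (SD, n = 3 each), a difference of -0.33 (SE 0.24, 95% interval -0.92 to 0.26, limma adjusted p = 0.948). With female 3 and male 3 left out the remaining groups no longer overlapped and the difference was -0.57 (limma adjusted p = 0.277), in a comparison of 2 against 2 where 32.1% of all features were lower without overlap and 0.288% passed adjustment. It was -0.15 without the library labelled male 2 and -0.53 without the one labelled female 3.

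IKZF1, the zinc finger factor Ikaros that is needed for lymphocyte development, was the steadiest of the 8. Its level was -0.02, 0.09 and 0.00 in female-labelled libraries 1, 2 and 3, and -0.06, 0.10 and 0.17 in male-labelled libraries 1, 2 and 3. The groups overlapped, and the highest library exceeded the lowest only 1.17-fold. The difference of 0.05 had a 95% interval of -0.26 to 0.36 (limma adjusted p = 0.960), and it was -0.01 with female 3 and male 3 left out (limma adjusted p = 0.965). Its SD over the 6 libraries, 0.09, was above that of only 8.1% of the 1000 features nearest to it in mean level.

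ETS1, a factor of T, B and natural killer cells, had 1 probe. Its level was 1.26, 1.22 and 1.27 in female-labelled libraries 1, 2 and 3, and 1.06, 1.99 and 1.19 in male-labelled libraries 1, 2 and 3. The female-labelled libraries agreed within 0.05, and the library labelled male 2 stood far above all others. The difference of 0.16 (SE 0.26, 95% interval -0.46 to 0.79, limma adjusted p = 0.948) rested on that library, and it turned to -0.12 without it. It was 0.28 with female 3 and male 3 left out (limma adjusted p = 0.656). The same library had the highest cytotoxic gene level, with the granule protease gene GZMA at 5.76 against 1.01 to 4.59 in the other 5. The library labelled male 1, with GZMA at 4.59, had the lowest ETS1. Over the 6 libraries ETS1 and the cytotoxic genes had r = 0.68 (exact permutation p = 0.306) and rho = 0.14. Without the library labelled male 2 that r was -0.85. The part of these cells in the ETS1 level was not tested.

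GATA3, the factor that drives T cell commitment and the type 2 helper programme, had 1 probe. Its level was 6.17, 5.84 and 5.28 in female-labelled libraries 1, 2 and 3, and 6.03, 5.53 and 5.58 in male-labelled libraries 1, 2 and 3. The library labelled female 1 was the highest and female 3 the lowest, so the female-labelled group enclosed the male-labelled one. The means were 5.76 ± 0.45 and 5.71 ± 0.28 (SD, n = 3 each), and the difference of -0.05 (95% interval -0.70 to 0.60, limma adjusted p = 0.981) was smaller than the spread of either group. It was -0.22 with female 3 and male 3 left out (limma adjusted p = 0.617).

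LEF1, which carries Wnt signals to DNA together with beta-catenin in developing and resting T cells, had 3 probes. The brightest, A_87_P053466, read -0.72, -0.59 and -0.42 in female-labelled libraries 1, 2 and 3, and -1.06, -0.91 and -0.64 in male-labelled libraries 1, 2 and 3. Male 1 was the lowest and female 3 the highest, and only male 3 reached into the female-labelled range. The difference was -0.30 (SE 0.16, 95% interval -0.69 to 0.10, limma adjusted p = 0.948), and -0.33 with female 3 and male 3 left out (limma adjusted p = 0.259).

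The second LEF1 probe, A_87_P037952, read -3.02, -2.88 and -2.89 in female-labelled libraries 1, 2 and 3, and -3.33, -3.59 and -3.24 in male-labelled libraries 1, 2 and 3. Here every male-labelled library lay below every female-labelled one, as for 4.14% of all probes. In the fit of each probe by itself its difference of -0.46 (SE 0.14, 95% interval -0.80 to -0.12) had a limma p of 0.0164 before and 0.942 after adjustment over 35133 probes. The third, A_87_P125884, read -2.50, -2.36 and -2.39, then -2.77, -2.86 and -2.38, with male 3 at the level of the female-labelled libraries. Its difference was -0.25. The 3 probes correlated with each other at r between 0.78 and 0.88. In that fit LEF1 A_87_P037952 and RUNX1 A_87_P008696 (limma unadjusted p of 0.0482) were the 2 of 14 probes with an unadjusted p under 0.05, against 3.91% of all probes.

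**Figure D1:**
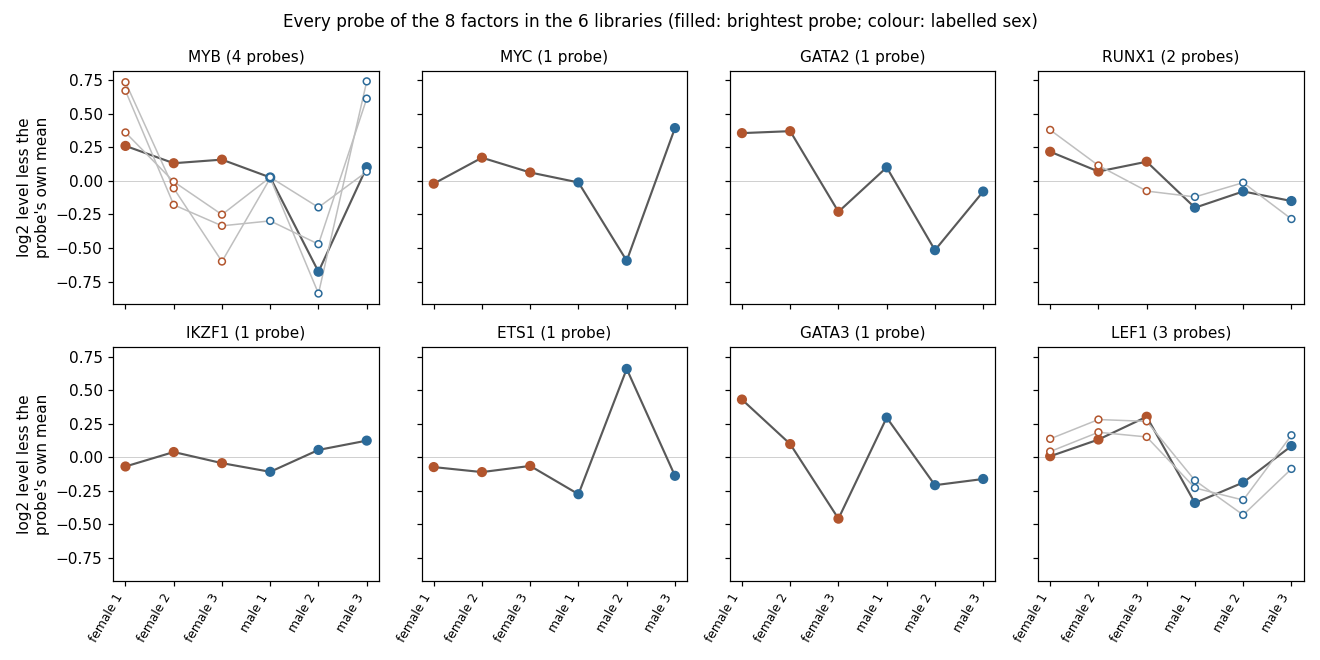
Level of each of the 14 probes in each library (vertical axis, log2 less the probe's own mean over the 6 libraries; horizontal axis, libraries as labelled). Filled points and dark lines are each gene's brightest probe, open points the others; orange marks female-labelled and blue male-labelled libraries. On the brightest probes MYB, MYC and GATA2 are lowest in the library labelled male 2, where ETS1 is highest. IKZF1 stays within 0.23 from lowest to highest.

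**Figure D2:**
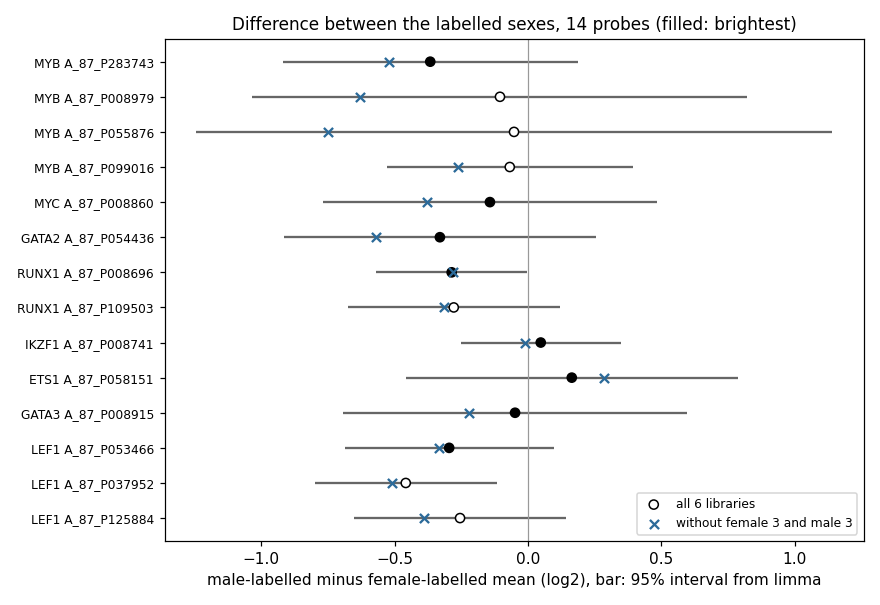
Male-labelled minus female-labelled mean (log2, horizontal axis) for each probe, fitted one by one. Circles (filled for the brightest probe of a gene) use all 6 libraries with bars for the 95% interval from limma, and crosses leave out the libraries labelled female 3 and male 3. The bars of LEF1 A_87_P037952 and RUNX1 A_87_P008696 stay below 0, and those of the other 12 probes cross it.

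Spread between libraries ranged widely within the group. On each gene's brightest probe, the SD over the 6 libraries was 0.35 for GATA2, 0.34 for MYB and 0.33 for MYC, ETS1 and GATA3. It was 0.23 for LEF1, 0.17 for RUNX1 and 0.09 for IKZF1. Against the 1000 features nearest in mean level, GATA2 and GATA3 were at the 81.7th and 81.2th percentile and RUNX1 at the 34.8th. On these brightest probes the lowest library was male 1 for IKZF1, ETS1, LEF1 and RUNX1. It was male 2 for MYB, MYC and GATA2, and female 3 for GATA3. Over all features, the libraries labelled male 1 and male 2 were the lowest for 15.4% and 14.9%. No factor was lowest on its brightest probe in the library labelled female 1, female 2 or male 3. The second RUNX1 probe was lowest in male 3, LEF1 probes A_87_P037952 and A_87_P125884 in male 2, and MYB probe A_87_P099016 in female 3.

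On the brightest probes, the library labelled male 2 combined the lowest MYB, MYC and GATA2 with the highest ETS1. Its deviations from the mean over libraries were -0.68, -0.60, -0.52 and 0.66. It also had the lowest erythroid marker level (mean deviation -0.53 over 12 genes), the lowest mean heterophil level and the highest cytotoxic level. CSF3R and CATHB1 of the heterophil list were not low there. Its median correlation with the other libraries over all features was 0.976, against 0.976 to 0.980 for the other 5 libraries. What the mixture of cells contributed to these 4 levels was not tested.

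**Figure D3:**
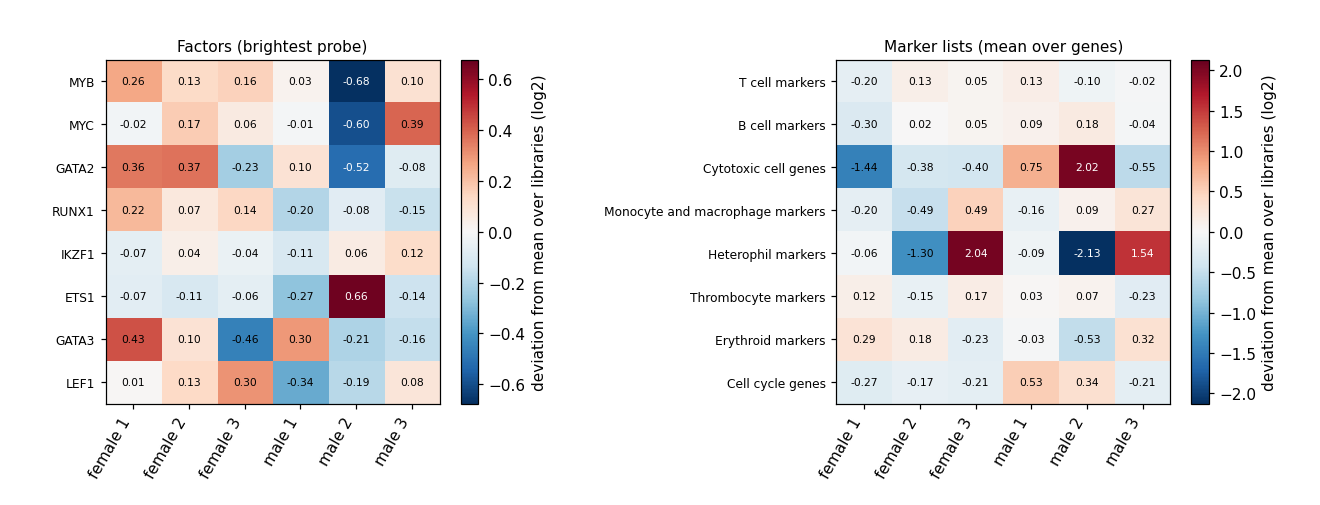
Deviation of each library from the mean over the 6 libraries (log2, colour and printed value) for the 8 factors on their brightest probe (left) and for the mean over the measured genes of 8 marker lists (right). The 2 colour scales differ. The library labelled male 2 holds the largest deviations of MYB, MYC, GATA2 and ETS1 and the extremes of the cytotoxic and heterophil lists.

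Co-variation was measured for the 28 pairs of factors over the 6 libraries, with exact two-sided permutation tests. With 720 possible orders of the 6 libraries, the smallest p the test allows is 0.00278. Pearson r ran from -0.90 to 0.84 with a median of 0.08, and 17 pairs were positive. By either Pearson or Spearman correlation, 0 pairs had an unadjusted p under 0.05, and the lowest Benjamini-Hochberg adjusted p was 0.801. No pair had both r and rho beyond 0.8 in the same direction, so the 3 pairs of largest r are described.

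All 3 rested on the library labelled male 2. MYB and MYC had r = 0.84 (exact permutation p = 0.219) but rho = 0.20 (exact permutation p = 0.714), and r was -0.24 without that library. MYC and ETS1 had r = -0.85 (exact permutation p = 0.161) and rho = -0.54 (exact permutation p = 0.297), and r was 0.10 without it. MYB and ETS1 had r = -0.90 (exact permutation p = 0.328) and rho = 0.09 (exact permutation p = 0.919), and r was 0.85 without it. After each labelled sex's mean was removed the 3 values of r were 0.89, -0.84 and -0.96. Without the 2 libraries farthest from the median of the first factor they were 0.27, 0.31 and 1.00, over 4 libraries. The other 3 MYB probes gave r from 0.33 to 0.67 with MYC and from -0.61 to -0.38 with ETS1.

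The 2 GATA factors moved in the same direction by both measures, a pair that was picked after its values were seen. Their r was 0.77 (exact permutation p = 0.0833) and their rho 0.77 (exact permutation p = 0.103), with an adjusted p of 0.801 over the 28 pairs. The r was 0.85 after each labelled sex's mean was removed, 0.84 without the library labelled male 2, and 0.81 with female 3 and male 3 left out. Without the 2 libraries farthest from the median of GATA2 (female 2 and male 2) it was 0.96 over 4 libraries. Both factors were high in female 1, female 2 and male 1, and low in female 3, male 2 and male 3.

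LEF1 and RUNX1 each had a probe that was lower in every male-labelled library, as MYB also had. On the brightest probes, of which that of LEF1 overlapped between groups, r was 0.64 (exact permutation p = 0.178) and rho 0.54 (exact permutation p = 0.297). LEF1 probe A_87_P037952, which did not overlap, gave r = 0.72 with the brighter RUNX1 probe. With the second RUNX1 probe, A_87_P109503, r was 0.06 for the brightest LEF1 probe and 0.36 and 0.04 for its other probes. With each labelled sex's mean removed r of the brightest probes was -0.05, so the likeness of these 2 probes lay between the groups and not within them. GATA3 and LEF1, both T cell factors, had r = -0.51 over all libraries and -0.79 within the labelled sexes.

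**Figure D4:**
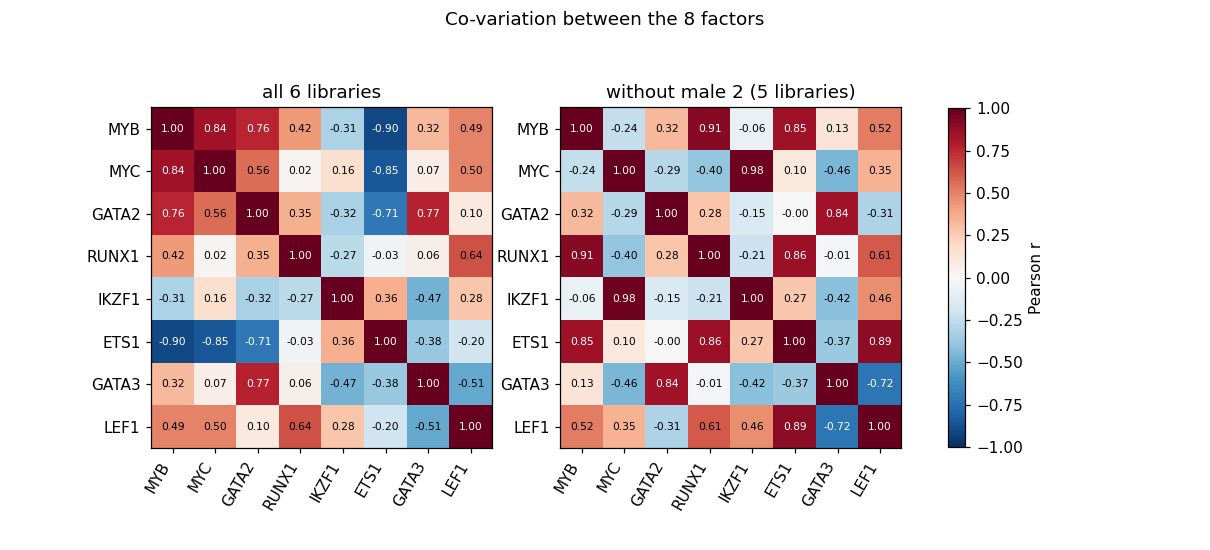
Pearson r of each pair of the 8 factors (brightest probe) over all 6 libraries (left) and over the 5 without the library labelled male 2 (right), in colour and as printed values. MYB with MYC goes from 0.84 to -0.24 and MYB with ETS1 from -0.90 to 0.85, while GATA2 with GATA3 is 0.77 and 0.84.

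Against the 8 marker lists, taken as the mean deviation of each list's measured genes, 2 of 64 correlations had an unadjusted exact permutation p under 0.05. None passed adjustment. Of 4664 named genes taken singly, 7.61% reached that p with MYB, and from 2.34% (ETS1) to 15.2% (GATA2) across the factors. MYB ran against cytotoxic cell genes, with r = -0.92 (exact permutation p = 0.0139, adjusted p = 0.674) and rho = -0.83 (exact permutation p = 0.0583). This relation did not rest on the library labelled male 2, without which r was -0.94. It was -0.87 within the labelled sexes, -0.91 with female 3 and male 3 left out, and -0.87 without the 2 libraries farthest from the median of MYB. The other 3 MYB probes gave weaker values, -0.74, -0.73 and -0.63.

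MYB with B cell markers was the second (r = -0.69, exact permutation p = 0.0222, adjusted p = 0.674), with rho = -0.77 (exact permutation p = 0.103). GATA2 and GATA3 both ran against monocyte and macrophage markers, with r = -0.73 (exact permutation p = 0.117) and -0.78 (exact permutation p = 0.0667). LEF1 ran against cell cycle genes with r = -0.89 (exact permutation p = 0.05, adjusted p = 0.674) and rho = -0.49 (exact permutation p = 0.356). MYC, GATA2 and MYB followed erythroid markers with r = 0.82, 0.82 and 0.80, and these values were 0.46, 0.57 and 0.28 without the library labelled male 2.

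The marker lists themselves showed no adjusted call between the labelled sexes. The median differences, male-labelled minus female-labelled, were -0.04 for T cell, 0.14 for B cell, 0.26 for monocyte, -0.53 for heterophil, -0.10 for thrombocyte and -0.17 for erythroid markers. Cytotoxic genes had a median of 1.55 with 4 of 4 higher, and cell cycle genes 0.42 with 16 of 17 higher. The summed linear level of the cytotoxic genes ranged from 15.4 to 36.7 in the female-labelled and from 27.3 to 161 in the male-labelled libraries, and that of cell cycle genes from 32.9 to 54.7 and from 30.9 to 66.9. For T cell markers the ranges were 306 to 424 and 352 to 396, for B cell markers 103 to 128 and 121 to 132, and for thrombocyte markers 254 to 297 and 212 to 290. Such sums are weighted to the brightest probes of a list and do not describe its other genes. Examples are CD3D (log2 level 7.53 to 8.11) among T cell markers and CDC20 (3.72 to 5.25) among cell cycle genes. CDC20 was also the 1 cell cycle gene with a lower male-labelled mean (-0.17). The part of these cells in the lower RUNX1, MYB and LEF1 of the male-labelled libraries was not tested.

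The partners and close relatives of the 8 factors were measured by 20 genes of the 39 listed. By group means, 7 stood higher in the male-labelled libraries and 13 lower (median -0.13), and 0 passed adjustment. MXI1, which competes with MYC for MAX, was the 1 gene of these 20 with an unadjusted p under 0.05, near the 3.81% of all features. Its level was 0.14, 0.12 and 0.31 in female-labelled libraries 1, 2 and 3, and 0.38, 0.72 and 0.55 in male-labelled libraries 1, 2 and 3. Every male-labelled library was above every female-labelled one, as for 3.84% of all features. The difference was 0.36 (SE 0.15, limma unadjusted p of 0.0451 and adjusted p = 0.948). MXD1, another such competitor, had a difference of -0.26, MYBL2, the cell cycle relative of MYB, 0.26, and the ETS relative ERG, well above background in 5 of 6 libraries, -0.77, all with limma adjusted p = 0.948. GATA6, a GATA factor of endoderm, was well above background in no library.

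Other blood transcription factors, with 29 of 51 listed genes measured, were split between 16 higher and 13 lower (median 0.03) and had 0 calls, adjusted or not. The nearest were BCL6, a germinal centre factor (0.27), CEBPB and CEBPG of the C/EBP family (0.28 and 0.36), and RORA, a nuclear receptor of lymphocytes (-0.41). Each had a limma adjusted p of 0.948. Growth genes that MYC is known to activate in mammals had 9 of 13 higher and 4 lower (median 0.06) and likewise 0 calls. GART of purine synthesis (0.30), DKC1 of ribosomal RNA modification (0.22), the nucleolar NPM1 (0.26) and the mitochondrial chaperonin HSPE1 (0.16) had the smallest p-values among them.

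T cell genes that GATA3, LEF1 or ETS1 are known to control in mammals were lower in the male-labelled mean for 12 of 13 measured, against 52.6% of all features. Their median was -0.10, and -0.36 with female 3 and male 3 left out, against -0.04 for all features there. Some of them, such as CD3E, CD28 and IL7R, were also among the T cell markers above. IL7R and CD3E counted as lower with differences of only -0.003 and -0.03. CCR7, the receptor that guides T cells to lymph nodes, read -2.13, -2.26 and -2.64 in female-labelled libraries 1, 2 and 3, and -2.65, -2.93 and -2.78 in male-labelled libraries 1, 2 and 3. The groups were separated only by the narrow gap between female 3 and male 1. The difference was -0.45 (SE 0.18, limma unadjusted p of 0.0447 and adjusted p = 0.948), and the list had 0 adjusted calls.

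TCF7, the close relative of LEF1 in T cells, read 1.14, 1.42 and 1.35 in female-labelled libraries 1, 2 and 3, and 0.92, 0.70 and 1.30 in male-labelled libraries 1, 2 and 3. It shared with LEF1 a low level in male 1 and male 2 and a higher one in male 3. The groups overlapped, with a difference of -0.33 (SE 0.19, limma adjusted p = 0.948). Its r with LEF1 was 0.84 (exact permutation p = 0.05) and rho 0.89 (exact permutation p = 0.0333), both p-values unadjusted. TCF7 is among the 49 measured genes that are set against each factor below. For LEF1 the lowest adjusted exact permutation p of r among those genes was 0.500, so the pair did not pass adjustment. AXIN2, a Wnt target, differed by -0.40, and IL5, a type 2 cytokine that was well above background in 4 of 6 libraries, by -1.15 (limma adjusted p = 0.948 for both). IL4 was well above background in no library.

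Each factor was set against the 49 measured genes of the 2 factor lists, in 392 correlations. None passed adjustment, and the lowest adjusted p was 0.363. At an unadjusted exact permutation p under 0.05 there were 14 for GATA2, 10 for GATA3, 3 for MYB, 2 each for IKZF1 and RUNX1, 1 each for MYC and ETS1, and 0 for LEF1. GATA2 and GATA3 had many such partners among all 4664 named genes as well, 15.2% and 12.8%. The share was 7.61% for MYB, 4.05% for LEF1, 4.01% for MYC, 3.73% for RUNX1, 3.13% for IKZF1 and 2.34% for ETS1. The pairs named next were picked from these 392 after their values were seen.

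GATA2 moved with TAL1, which forms complexes with GATA factors in stem, erythroid and megakaryocyte cells of mammals. TAL1 also belongs to the 12 measured erythroid markers, whose mean deviation had r = 0.82 with GATA2 as given above. TAL1 read 2.85, 2.37 and 1.71 in female-labelled libraries 1, 2 and 3, and 2.29, 1.44 and 2.10 in male-labelled libraries 1, 2 and 3. Like GATA2 it was highest in female 1 and 2 and lowest in male 2 and female 3. The r was 0.94 (exact permutation p = 0.00556, adjusted p = 0.363), with rho = 0.94 (exact permutation p = 0.0167), and it was 0.94 with female 3 and male 3 left out.

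SPI1 (PU.1), the myeloid and B cell factor that opposes GATA factors in mammals, ran against GATA2. SPI1 read -0.18, -0.48 and 0.51 in female-labelled libraries 1, 2 and 3, and 0.11, 0.55 and 0.51 in male-labelled libraries 1, 2 and 3. The order of the 6 libraries was the exact reverse of that for GATA2 (rho = -1, exact permutation p = 0.00278, the smallest the test allows). That exact order rested on a near tie of SPI1, at 0.508 in female 3 and 0.506 in male 3. It also rested on a near tie of GATA2, at 3.280 in female 1 and 3.294 in female 2. The r was -0.90 (exact permutation p = 0.00278, adjusted p = 0.363), -0.95 without the library labelled male 2, and -0.94 with female 3 and male 3 left out. The monocyte list, whose genes SPI1 controls in mammals, had the correlation with GATA2 given above, and its part was not tested.

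PAX5, the B cell identity factor on chromosome Z, also ran against GATA2, with r = -0.94 (exact permutation p = 0.00556, adjusted p = 0.363) and rho = -0.94 (exact permutation p = 0.0167). It read -4.02, -3.64 and -3.23 in female-labelled libraries 1, 2 and 3, and -3.53, -2.95 and -3.34 in male-labelled libraries 1, 2 and 3. As for MYB, the flag alone does not settle how much of this low signal came from its mRNA. The female-labelled library low in HINTW had the highest PAX5 of its group. The male-labelled library high in HINTW was not the lowest of its group, but lay between male 1 and male 2.

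GATA3 moved with LMO2, the bridging partner of TAL1 and GATA factors, and with TCF7L2, a relative of LEF1. LMO2 read 2.53, 1.95 and 1.61 in female-labelled libraries 1, 2 and 3, and 2.28, 1.67 and 1.99 in male-labelled libraries 1, 2 and 3. Its r with GATA3 was 0.94 (exact permutation p = 0.00556, adjusted p = 0.363). TCF7L2 had r = 0.97 (exact permutation p = 0.00833, adjusted p = 0.408), at levels of 1.84, 1.62 and 0.85, then 1.56, 1.02 and 1.16. Both were highest in female 1 and low in female 3 and male 2, as GATA3 was. With female 3 and male 3 left out the r values were 0.99 and 0.93.

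Among the 49 genes, IKZF1 and RUNX1 had their closest relations with genes of the MYC and MYB networks and with an Ikaros relative. The lists were chosen to hold such genes, so this says nothing about other genes. Among all 4664 candidates, REL reached r = 0.98 with IKZF1 and ST3GAL1 0.99 with RUNX1. IKZF1 had r = -0.94 with MXD4, a MAX partner (exact permutation p = 0.0139, adjusted p = 0.500), and -0.91 with IKZF5, another member of the Ikaros family (exact permutation p = 0.00556, adjusted p = 0.363). The second of these was -0.45 when arrays were scaled to their medians. RUNX1 had r = 0.91 with MXD1 (exact permutation p = 0.0194, adjusted p = 0.500) and -0.91 with MYBL2 (exact permutation p = 0.00833, adjusted p = 0.408). Under the alternatives run, these values ranged from 0.67 to 0.97 and from -0.99 to -0.73. With CBFB, the subunit that RUNX1 binds DNA with, r was -0.38 (exact permutation p = 0.433).

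**Figure D5:**
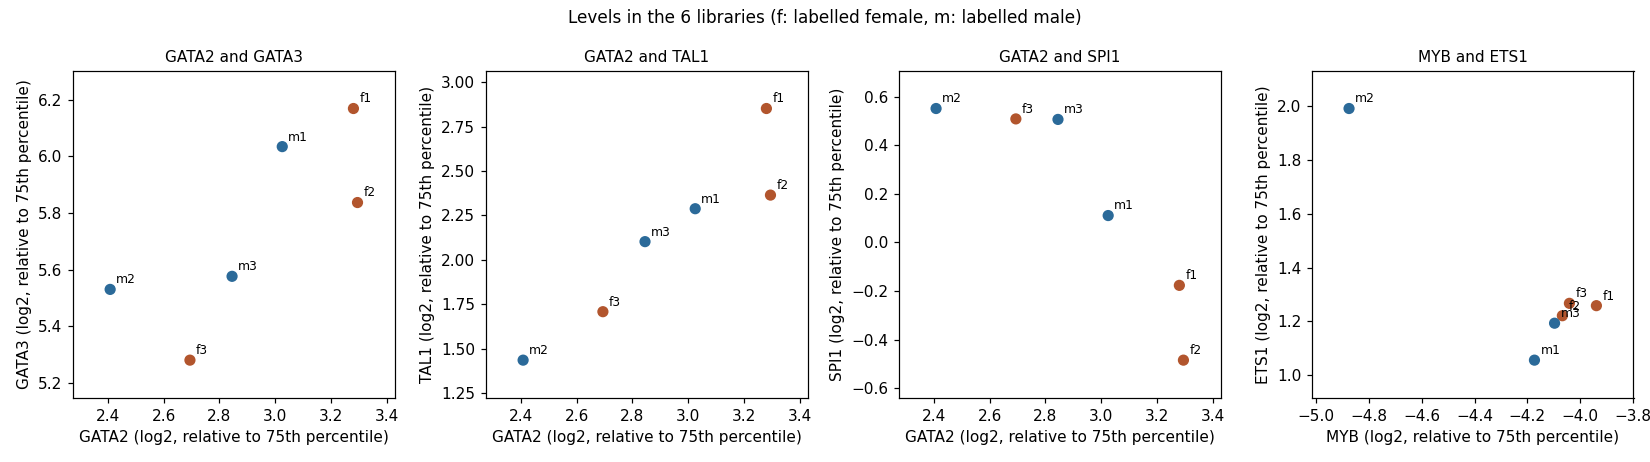
Levels of 4 pairs of genes in the 6 libraries, on axes of log2 level (0 is the array's 75th percentile); f and m mark libraries labelled female and male, with their number. GATA2 rises with GATA3 (r = 0.77) and TAL1 (r = 0.94) and falls with SPI1 (r = -0.90), and the MYB with ETS1 value of -0.90 is set by the library labelled male 2.

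The named genes whose pattern over the 6 libraries was most like that of each factor were taken from 4664 candidates, as a description without a test. For MYB they were MANSC1, DHRS11 and FAM206A (r = 0.97 each), and for MYC PRSS3, FZD1 and FTL (r = 0.99, 0.98 and 0.97). All 6 of these genes were lowest in the library labelled male 2, as MYB (on its brightest probe) and MYC were. For ETS1 FAAP100 and SLC39A9 are given (r = 0.98 and 0.97), both highest in that library. REL, a subunit of NF-kappa-B, CCDC50 and EVI2A were nearest to IKZF1 (r = 0.98, 0.98 and 0.97).

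GATA2 was followed most closely by NEGR1, GORASP1 and GHRL (r = 0.98, 0.98 and 0.97), and GATA3 by STX17, MOV10 and CHD2 (r = 0.99, 0.99 and 0.98). HAPLN1, GNAI1 and C4BPM were nearest to LEF1 (r = 0.98, 0.97 and 0.97). NEGR1, HAPLN1, MANSC1 and FZD1 had low signals, at most -3.72, -4.91, -4.86 and -5.25 in any library. ST3GAL1, a sialyltransferase, H2AFY2 and BMT2 were nearest to RUNX1 (r = 0.99, 0.97 and 0.97). ST3GAL1 read -0.19, -1.14 and -0.69 in female-labelled libraries 1, 2 and 3, and -2.28, -1.72 and -1.98 in male-labelled libraries 1, 2 and 3. It kept the order of RUNX1 in every library over a wider range. An r of at least 0.9 was reached by 79 of the candidates for GATA2 and 77 for GATA3, and by 19 to 33 for each of the other 6 factors. The value of r carries no size of change. The SD over the 6 libraries was only 0.07 for REL, 0.06 for SLC39A9, 0.08 for C4BPM and 0.08 for GORASP1.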

How the data were processed

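The authors deposited 1 scanner file per sample and a table of processed values. Per the file headers, the arrays were read with Feature Extraction 11.5.1.1 on a galGal3 design, and the deposited processed signal is a background-subtracted intensity that was not scaled between arrays. The deposited table holds the same intensity times 1 factor per array (2.10 to 2.31, constant to a relative tolerance of 1e-06). Its columns had medians of 286 to 318, its scale is linear and no centring was found. Further steps are not given in the sources used here.

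From these, the log2 processed signal was set relative to the 75th percentile of the same array's spots, controls aside. Control spots and outlier-flagged spots were left out and spots of a probe averaged. Kept probes were those above background, by the deposited flag, on 3 or more of the 6 arrays (35140 of 43603, of which 7 lacked a value on some array). Accessions on the probes named 11935 probes of 5382 genes through a RefSeq table, whose assembly differs from galGal3, so no coordinates are given, and 31668 probes stayed unnamed. A gene was taken at its brightest kept probe and each unnamed probe stood alone, which gave 29508 features. A few listed names matched only through synonyms in that table, among them FOXP1 for FOXP3, ALAS1 for ALAS2, CCNB1 for CCNB2 and STAT5A for STAT5B. Differences between the labelled sexes came from limma 3.58.1 in R 4.3.3 with Benjamini-Hochberg adjustment, and correlations over the 6 libraries were tested with exact two-sided permutations. The number of arrays limits the precision. The scripts were tested on simulated data.

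The 8 factors and all gene lists were chosen with earlier results of these data known. Named genes were all 8 factors with every probe, up to 4 genes per list with the smallest unadjusted p, the 3 named genes most like each factor, and pairs of factors with r and rho both beyond 0.8 or else the 3 largest r. A gene taken by the rule is not reported here. The labels do not say whether replicate numbers pair the libraries, and the fit did not pair them. The deviations of same-numbered libraries correlated at 0.01, -0.11 and -0.21, which cannot decide whether the samples were paired. Alternatives covered the background correction (normexp with an offset of 50, on median spot signals since mean signals were not used here), scaling, probe filter and summary, the eBayes settings, a replicate block and left-out libraries. Leaving out the libraries labelled female 3 and male 3, and testing each probe by itself, were chosen after seeing the data.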

Additional observations from a re-analysis of the deposited data

How the results depend on the processing

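The directions of MYB, GATA2, LEF1 and RUNX1 were the same under all alternatives run, with differences from -0.52 to -0.12, -0.57 to -0.15, -0.41 to -0.20 and -0.32 to -0.24, and 0 factors passed adjustment under any of them. RUNX1 groups did not overlap under any alternative, while those of MYB overlapped under normexp, quantile normalization and the mean of all kept probes. At an unadjusted p under 0.05 the count of factors was 0 and became 1 under normexp, quantile normalization, the deposited table and eBayes with trend and robust settings. Features past adjustment went from 0 to 1 under quantile normalization, to 85 with female 3 and male 3 both left out, and ranged from 0 to 2 with 1 library left out (2 without male 1). Features at an unadjusted p under 0.05 numbered 1124, 6374 with both of these left out, and from 740 (without female 1) to 5002 (without female 3) with 1 library left out, with 1832 without male 3. The share of those higher in the male-labelled group was 46.4%, and 57.5% under median scaling. The direction of GATA3 turned to 0.15, 0.04 and 0.02 without female 1, male 2 and male 3, that of MYC to 0.12 and of ETS1 to -0.12 without male 2, and that of IKZF1 to -0.0023 without male 3 and -0.012 without both female 3 and male 3. With 1 library left out, differences ran from -0.29 to 0.15 for GATA3, -0.37 to 0.12 for MYC, -0.12 to 0.34 for ETS1 and -0.0023 to 0.11 for IKZF1. Pairs of factors at an unadjusted exact permutation p under 0.05 numbered 0, and from 0 to 3 with 1 library left out (3 without male 2). The r of MYB with MYC turned to -0.24, of MYB with ETS1 to 0.85 and of MYC with ETS1 to 0.10 without male 2, and their ranges were -0.24 to 0.94, -0.97 to 0.85 and -0.94 to 0.10 with 1 library left out. Correlations with marker lists at that level numbered 2, and 4 under normexp, 1 under median scaling, 4 with the mean of all kept probes, and from 0 to 4 with 1 library left out. The unadjusted count of features was also lower without female 2, male 1 or male 2 (813, 913 and 765). It was higher only without female 3 or male 3. The cause of these shifts was not tested.

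With the replicate number as a block, 0 features and 0 factors passed adjustment (lowest adjusted p 0.650 over all features), and the block moved the count at an unadjusted p under 0.05 from 1124 to 1159. Same-numbered libraries did not correlate best with each other. All probes of the factors were well above background on every array.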

Other observations

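Among the marker genes, cell cycle genes had the most unadjusted calls. At an unadjusted limma p under 0.05, 7 of 17 were higher in the male-labelled libraries, against 1.77% of all features. Groups did not overlap for 4 of the 17, against 3.84% of all features that were higher without overlap. The mean deviation of the list was 0.53 and 0.34 in male 1 and male 2. It was -0.21 in both male 3 and female 3, and -0.17 in female 2. BUB1, a spindle checkpoint kinase, read -1.25, -1.18 and -1.58 in male-labelled libraries 1, 2 and 3 and at most -2.004 in each female-labelled one (difference 0.67, SE 0.15, limma adjusted p = 0.948). CENPA and PLK1 differed by 0.62 and 0.60. The chemokine gene CCL5 of cytotoxic cells differed by 1.97 (SE 0.72), and 4 of 4 genes of that list had a higher male-labelled mean. The mean deviation of that list was 0.75 and 2.02 in male 1 and male 2. In male 3 it was -0.55, below female 2 (-0.38) and female 3 (-0.40). Monocyte and macrophage genes went both ways, with 6 of 9 higher (median 0.26). The scavenger receptor gene CD36 differed by -0.62 (SE 0.22) and the Fc receptor subunit gene FCER1G by 0.80 (SE 0.34). Erythroid genes had 1 unadjusted call in each direction. The membrane genes RHAG and XK differed by -1.69 (SE 0.55) and 1.77 (SE 0.50), and XK was well above background in 4 of 6 libraries. Each of these genes had a limma adjusted p of 0.948.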
